A study of Mus musculus with 2 samples.

Results

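The genes described here write, read and remove methyl marks on cytosine: the DNA methyltransferases Dnmt1, Dnmt3a and Dnmt3b, the maintenance factor Uhrf1, the methyl-CpG readers Mbd1 and Mbd2, and the oxidising enzymes Tet1, Tet2 and Tet3. They were chosen by name from the deposited gene table, and all 9 were found among its 55246 loci. The data are RNA sequencing read counts per gene from Foxp3-dependent regulatory T (Treg) cells of the colon lamina propria, which lies beneath the gut epithelium. There was 1 library from female wild-type mice (WT) and 1 from female mice whose Foxp3 gene lacks exon 2 (Exon2KO). The labels do not give the mice's age, how the allele was made, the gate used to sort the cells, or whether mice were pooled. With 1 library per genotype the spread between samples is unknown, so each difference below is between these 2 libraries and has no replicate check.

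Methylation of cytosine in CpG pairs is set on new sites by DNMT3A and DNMT3B and copied after DNA replication by DNMT1, which UHRF1 brings to hemimethylated DNA. MBD proteins bind methylated CpG and recruit repressor complexes, MBD2 as a subunit of NuRD. TET enzymes oxidise methylated cytosine, which opens the way to its removal by base excision repair or by loss at replication. In Treg cells, stable Foxp3 expression is tied to demethylation of an intronic enhancer of Foxp3, and TET2, TET3 and MBD2 are known to take part in keeping it open.

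Methylation of cytosine in CpG pairs is what these proteins write, read or oxidise. The members' own promoters differ in how many CpG pairs they hold. The 250 bases upstream of a transcription start are shown for the members with the lowest and the highest ratio between the libraries, Dnmt1 and Tet2, with each CpG in capitals. The Dnmt1 window is chr9:20952980-20953229 on the minus strand and the Tet2 window is chr3:133544391-133544640 on the minus strand (RefSeq, GRCm38.p6), read 5′ to 3′, and neither overlaps an exon annotated in GENCODE M21.
Dnmt1: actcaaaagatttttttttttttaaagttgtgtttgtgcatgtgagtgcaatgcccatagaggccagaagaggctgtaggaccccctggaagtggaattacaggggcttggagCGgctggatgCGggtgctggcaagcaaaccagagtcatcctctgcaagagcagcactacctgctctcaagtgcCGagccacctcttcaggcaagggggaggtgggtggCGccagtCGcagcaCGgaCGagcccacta
Tet2: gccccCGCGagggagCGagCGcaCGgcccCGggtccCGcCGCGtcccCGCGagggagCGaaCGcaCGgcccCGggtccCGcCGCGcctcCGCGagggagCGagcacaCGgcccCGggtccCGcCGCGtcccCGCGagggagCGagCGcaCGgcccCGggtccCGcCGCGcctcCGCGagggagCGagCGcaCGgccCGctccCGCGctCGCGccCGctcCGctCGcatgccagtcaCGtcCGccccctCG
The Tet2 window holds 51 CpG and the Dnmt1 window 7, against a median of 6 over 32851 promoter windows of the same length, of which 99.9% have fewer CpG than the Tet2 window and 53.7% fewer than the Dnmt1 window. Dnmt1 has 2 further starts in the RefSeq table, with 2 and 26 CpG in their windows, and the counts per gene do not tell which start was used. Of the 9 genes, 7 had a promoter in the table. Methylation itself was not measured in these libraries.

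Gene-assigned reads numbered 16281133 for WT and 15412425 for Exon2KO, and scaling of the libraries with TMM, the trimmed mean method of edgeR, gave factors of 0.964 and 1.04. Reads of the 9 genes together were 0.0552% of the total in WT and 0.0689% in Exon2KO. Mbd2 made up 72.8% and 77.3% of these reads, and the other 8 genes together had 2450 reads in WT and 2411 in Exon2KO. Foxp3 had 6991 reads in WT and 20946 in Exon2KO, and a count over the whole gene does not check the loss of 1 exon. Of the 6 T and Treg cell markers, the log2 ratio (Exon2KO over WT) was 0.00 for Cd3e, 0.20 for Cd4, -0.25 for Cd3d, -0.35 for Il2ra, 0.71 for Ctla4 and 1.56 for Foxp3, so they lay on both sides of 0. Of 11 epithelial markers, 9 were at least 2-fold higher in Exon2KO beyond counting error, against 7.20% of all genes tested. The summed level of the 11 was 93.9 CPM (counts relative to scaled library size) in WT and 487 in Exon2KO, with Fabp2 at 0 reads in WT. Epcam, the epithelial marker with the most reads in WT, went the other way, with 782 reads against 609 in Exon2KO (log2 ratio -0.39). The 8 B and plasma cell markers summed to 7942 and 7384 CPM, 7 myeloid markers to 39.8 and 49.2 CPM, with Mrc1 at 0 reads in WT, and 7 stromal and endothelial markers to 74.9 and 69.5 CPM. Pecam1 made up 58.4 CPM of the stromal and endothelial sum in WT. Cdh5 (0 and 15 reads) and Lum (6 and 20 reads) were at least 2-fold higher in Exon2KO beyond counting error, as were 7.20% of all genes tested. The 7 CD8 and cytotoxic cell markers summed to 3117 and 4001 CPM, of which Gzmb made up 2772 and 3981 CPM, while 5 of the 7 had a ratio below 0. Of these Gzma (-4.98), Cd8a (-1.67) and Prf1 (-1.64) were at least 2-fold lower in Exon2KO beyond counting error, against 6.61% of all genes tested. Ncr1, with 0 reads in WT and 10 in Exon2KO, was higher by the same measure, against 7.20%. The part of RNA from such cells in the values below was not tested, and fewer cells of a type and less RNA per cell cannot be told apart in bulk RNA.

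The ratios of all 9 genes were below 2-fold either way, though the interval of Tet1, with 5 and 6 reads, reaches past 2-fold. Of all genes tested, 34.8% had a ratio farther from 0 than Dnmt1, the farthest of the 9. That share includes genes with as few as 10 reads, whose ratios vary more from counting alone, and it was not matched for depth. Dnmt1, Mbd1 and Dnmt3a had fewer reads in the Exon2KO library, and Tet2 and Mbd2 had more. Dnmt3b, Tet1, Tet3 and Uhrf1 did not differ beyond counting error. Calls required 2-fold or more together with an adjusted p below 0.05 in a 2-sided exact binomial test of reads (Benjamini-Hochberg over 17363 genes with at least 10 reads). By this rule 0 of the 9 were called, against 13.8% of all genes tested. Without the fold threshold, 5 of the 9 passed, 2 higher and 3 lower, against 41.3% of all genes tested (19.4% higher and 21.9% lower). The median log2 ratio of the 9 was 0.07, beside 0.0035 over all genes tested, whose interquartile range was -0.33 to 0.35.

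**Figure D1:**
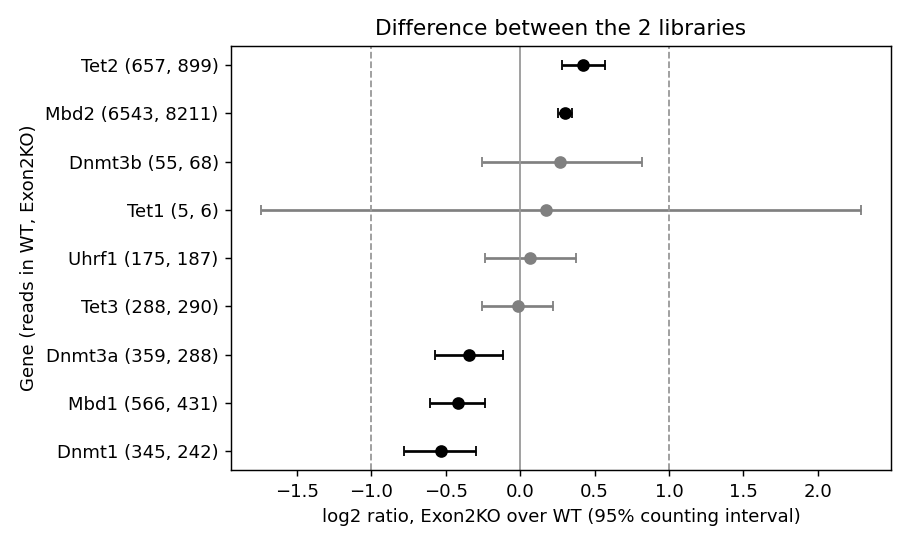
Log2 ratio of Exon2KO over WT (horizontal axis) for each of the 9 genes (vertical axis, with the reads in WT and Exon2KO in brackets). Points are the ratios with a prior count of 2, bars are 95% counting intervals, black marks the 5 genes with an adjusted binomial p below 0.05 and dashed lines mark 2-fold. All 9 points lie between -0.53 (Dnmt1) and 0.42 (Tet2).

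**Figure D2:**
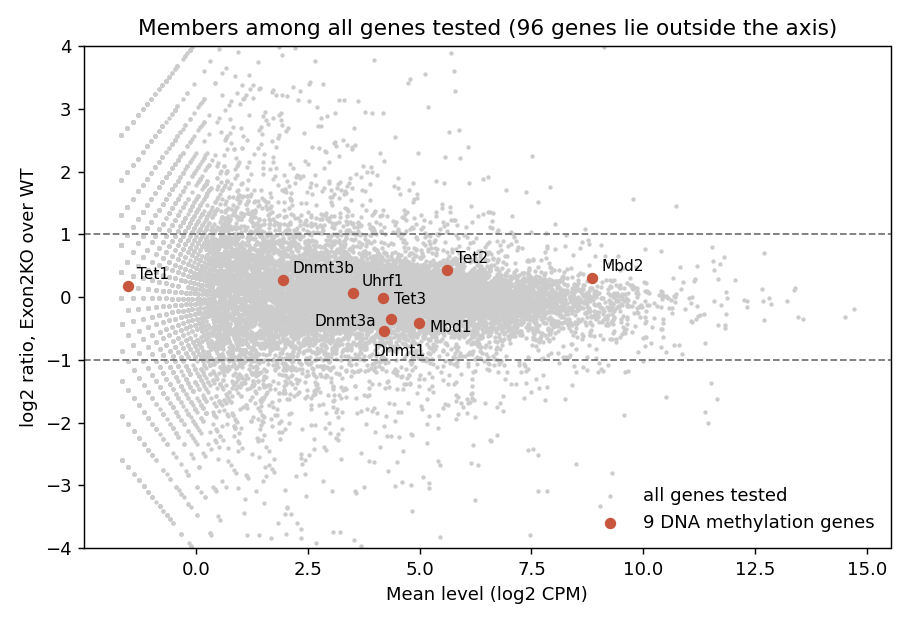
Log2 ratio (vertical axis) against mean level in log2 CPM (horizontal axis) for all 17363 genes tested (grey) and the 9 DNA methylation genes (red), with dashed lines at 2-fold. The 9 genes lie inside the 2-fold lines, Mbd2 far to the right of the others and Tet1 far to the left, and 96 genes lie beyond the axis limit of 4.

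Among the writers, Dnmt1 (ENSMUSG00000004099, chromosome 9, 20907209 to 20959888, minus strand, mm10), which copies methylation to the new strand, had 345 reads in WT and 242 in Exon2KO, or 22.0 and 15.1 CPM. It was 1.45-fold lower in the Exon2KO library, at a log2 ratio of -0.53 (95% Clopper-Pearson interval -0.78 to -0.30), with an adjusted binomial p of 4.6e-05. This was the lowest ratio of the 9, yet 34.8% of all genes tested had a ratio farther from 0. Dnmt3a (ENSMUSG00000020661, chromosome 12, 3806007 to 3914443, plus strand), which sets methylation on new sites, had 359 and 288 reads, or 22.9 and 18.01 CPM. Its log2 ratio was -0.34 (-0.57 to -0.12), with an adjusted binomial p of 0.0087, and 50.1% of all genes tested had a ratio farther from 0. With total counts as the scaling it was at -0.24 with an adjusted binomial p of 0.083 and did not pass. Dnmt3a shares 133 exonic bases with the antisense gene Dnmt3aos, which had 0 reads in both libraries.

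Dnmt3b (ENSMUSG00000027478, chromosome 2, 153649450 to 153687730, plus strand), the second enzyme that sets methylation on new sites, had 55 reads in WT and 68 in Exon2KO. Its log2 ratio of 0.27 had an interval of -0.25 to 0.82, so no difference could be detected with this number of reads. Summed over the 3 methyltransferases, the reads numbered 759 in WT against 598 in Exon2KO, which is a log2 ratio of -0.37 (-0.53 to -0.21). Dnmt1 made up 59.1% of the summed FPKM (reads scaled to gene length and library depth) of these 3 genes in WT and 51.7% in Exon2KO, while the share of Dnmt3a was 27.3% in both and that of Dnmt3b was 13.6% and 21.0%.

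Uhrf1 (ENSMUSG00000001228, chromosome 17, 56303321 to 56323486, plus strand), which binds hemimethylated CpG and recruits DNMT1, had 175 reads in WT and 187 in Exon2KO. Its log2 ratio was 0.07 (-0.24 to 0.37) with an adjusted binomial p of 0.81, so it did not follow Dnmt1 downward at this depth. The ratio of Dnmt1 to Uhrf1 reads does not depend on library scaling, and it was 1.97 in WT and 1.29 in Exon2KO. The Exon2KO value was 0.657 times the WT value (95% exact conditional interval 0.4999 to 0.862).

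Tet2 (ENSMUSG00000040943, chromosome 3, 133463679 to 133545139, minus strand), one of the enzymes that oxidise methylated cytosine, had the highest ratio of the 9. It had 657 reads in WT and 899 in Exon2KO, or 41.9 and 56.2 CPM. It was 1.34-fold higher in the Exon2KO library, at a log2 ratio of 0.42 (0.28 to 0.57), with an adjusted binomial p of 6.5e-08, and 42.4% of all genes tested had a ratio farther from 0. It shares 43 exonic bases with the antisense gene Gm42567, which had 2 reads in WT and 1 in Exon2KO.

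Tet3 (ENSMUSG00000034832, chromosome 6, 83362373 to 83459084, minus strand), an enzyme of the same activity, had 288 and 290 reads, and its log2 ratio was -0.02 (-0.26 to 0.22). This was the ratio nearest to 0 among the 9, and 97.2% of all genes tested lay farther from 0. Tet1 (ENSMUSG00000047146, chromosome 10, 62804570 to 62908996, minus strand), the TET enzyme best known from embryonic stem cells, was close to the floor of detection with 5 and 6 reads, and its interval of -1.74 to 2.29 allows a difference of several fold either way. Together the TET genes had 950 reads in WT against 1195 in Exon2KO, which is a log2 ratio of 0.30 (0.18 to 0.43), and Tet2 made up 68.9% of their summed FPKM in WT and 75.005% in Exon2KO.

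The readers lay on opposite sides of 0. Mbd1 (ENSMUSG00000024561, chromosome 18, 74267605 to 74282732, plus strand), a repressor that binds methylated CpG, had 566 reads in WT and 431 in Exon2KO, or 36.1 and 27.0 CPM. It was 1.34-fold lower in the Exon2KO library, at a log2 ratio of -0.42 (-0.60 to -0.24), with an adjusted binomial p of 3.0e-05. Mbd2 (ENSMUSG00000024513, chromosome 18, 70568189 to 70626131, plus strand), the reader that belongs to NuRD, had 6543 and 8211 reads, or 417 and 514 CPM. It was 1.23-fold higher in the Exon2KO library, at a log2 ratio of 0.30 (0.25 to 0.35), with an adjusted binomial p of 4.4e-35. Mbd2 had the most reads of the 9 and the narrowest interval, and 54.3% of all genes tested had a ratio farther from 0. The ratio of Mbd1 to Mbd2 reads in Exon2KO was 0.607 times that in WT (0.532 to 0.692).

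The levels of the 9 genes per unit of length spanned from hardly detected to among the highest in the library. In the deposited FPKM, Mbd2 was at 129 in WT and 161 in Exon2KO, above 98.1% and 98.6% of protein-coding genes in the table. Mbd1 came next in both libraries, at 5.42 and 4.09 FPKM, so that Mbd2 made up 96.0% and 97.5% of the summed FPKM of these readers. The other genes except Tet1 lay between 0.683 FPKM (Dnmt3b) and 2.97 FPKM (Dnmt1) in WT, and between 0.837 FPKM (Dnmt3b) and 3.35 FPKM (Tet2) in Exon2KO. Tet1 was last in both, at 0.0205 and 0.0244 FPKM.

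**Figure D3:**
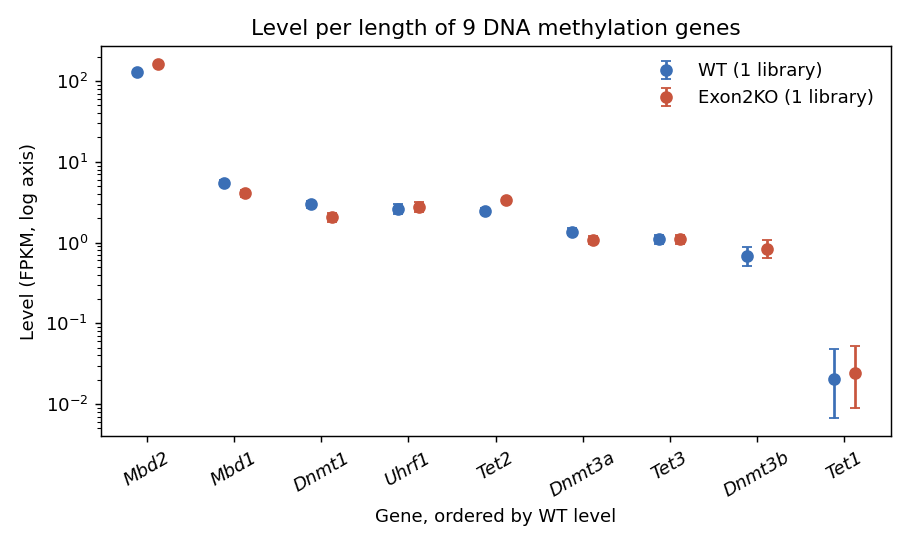
Deposited FPKM on a log axis for the 9 genes, ordered by their level in WT, with the WT library in blue and the Exon2KO library in red. Bars are 95% exact Poisson intervals of the reads carried to FPKM and cover counting error only. Mbd2 stands apart at 129 and 161 FPKM, and Dnmt1 and Tet2 change places between the libraries.

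The order of Dnmt1, Uhrf1 and Tet2 differed between the libraries. In WT the order was Dnmt1 (2.97 FPKM, 95% exact Poisson interval 2.66 to 3.30), Uhrf1 (2.61, 2.23 to 3.02) and Tet2 (2.47, 2.28 to 2.67), and neighbours in this order overlapped. In Exon2KO it was Tet2 (3.35, 3.13 to 3.58), Uhrf1 (2.76, 2.38 to 3.18) and Dnmt1 (2.06, 1.81 to 2.34), where Tet2 and Uhrf1 overlapped and Dnmt1 lay below both. Dnmt3a and Tet3 followed in WT at 1.37 and 1.09 FPKM without overlap, and were level in Exon2KO at 1.09 FPKM each.

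Ratios between members within a library are free of the scaling between libraries. The FPKM of Dnmt1 was 1.20 times that of Tet2 in WT and 0.616 times in Exon2KO. In reads, the Dnmt1 to Tet2 ratio in Exon2KO was 0.513 times that in WT (95% exact conditional interval 0.421 to 0.624); the pair joins the members with the lowest and the highest log2 ratio, so this restates their values free of scaling. The Dnmt3a to Tet2 ratio in Exon2KO was 0.586 times that in WT (0.485 to 0.708), and the Tet2 to Tet3 ratio was 1.36 times that in WT (1.12 to 1.65). By contrast Dnmt1 and Dnmt3a kept a similar proportion (0.874 times, 0.693 to 1.10), as did Tet2 and Mbd2 (1.09 times, 0.980 to 1.21). The interval excluded 1 for 17 of the 36 pairs, with no adjustment for their number. These pairs share genes and so are not independent. The share among pairs of other genes was not computed, so this count is a description only.

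The genes nearest to Tet2 in level in both libraries were Patl1, Npepps and Pdlim5, at 2.46, 2.50 and 2.46 FPKM in WT and 3.34, 3.31 and 3.29 FPKM in Exon2KO. Nearest to Dnmt1 were Ankib1, Polg and Rwdd2b, at 2.92, 2.88 and 2.93 FPKM in WT and 2.02, 2.02 and 2.13 FPKM in Exon2KO. Nearness was the Euclidean distance over log2(FPKM + 0.1) in the 2 libraries among 7888 protein-coding genes that had 100 reads or more in each, a description of 2 libraries only.

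Among the partners of maintenance methylation, 1 gene was called higher and 1 lower in Exon2KO. Uhrf2, the paralog of Uhrf1, which also binds modified cytosine, had 2542 reads in WT and 5778 in Exon2KO, or 18.8 and 42.3 FPKM. Its log2 ratio was 1.157 (1.09 to 1.23) and it was called higher, as were 7.20% of all genes tested, while Uhrf1 was at 0.07. The Uhrf2 call ended when a relative spread between samples (biological coefficient of variation, BCV) of 0.2 was assumed in edgeR's exact test, at an adjusted p of 0.071. Cdca7l, a relative of the HELLS activator Cdca7, had 112 and 38 reads and was called lower at -1.54 (-2.16 to -1.04), as were 6.61% of all genes tested. This call held with an assumed BCV of 0.2 (adjusted p of 0.030 in edgeR's exact test) and ended with 0.4 (adjusted p of 1). Cdca7 itself had 141 and 80 reads, at -0.83 (-1.26 to -0.44), short of 2-fold.

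Of the 9 maintenance partners listed, 7 were tested, with 1 past the counting test upward and 3 downward, against 19.4% and 21.9% of all genes tested, and their median was -0.14. Hells, a chromatin remodeller needed for methylation of repeats, was at -0.14 (-0.45 to 0.17), and Pcna, the replication clamp, was at -0.02 (-0.08 to 0.03) with 5967 and 5978 reads. Lig1, the replication ligase that binds UHRF1, was at -0.49 (-0.70 to -0.30). DNMT1 and UHRF1 are made mainly in dividing cells, so 18 S phase and proliferation genes were set beside them. Of these, 0 were called, against 13.8% of all genes tested. The counting test was passed upward by 1 (Mcm6) and downward by 8, against 19.4% and 21.9% of all genes tested, and their median was -0.22 with a range of -0.67 (Birc5) to 0.29 (Mcm6). The ratio of Dnmt1 thus lay inside the range of this list, below its median, and that of Uhrf1 above its median.

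**Figure D4:**
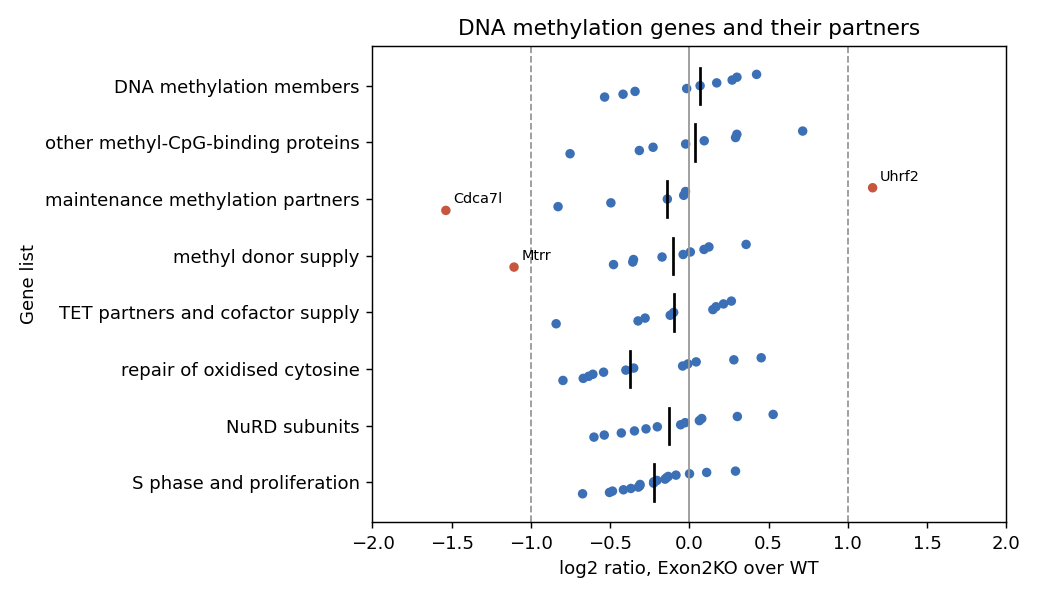
Log2 ratio of Exon2KO over WT (horizontal axis) for the tested genes of the 9 members and of the lists of partners (vertical axis). Each point is 1 gene, red points are called genes with their names, black bars are list medians and dashed lines mark 2-fold. Uhrf2 at 1.157, Cdca7l at -1.54 and Mtrr at -1.11 are the called genes.

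Among 8 other proteins that bind methylated DNA, 0 were called, against 13.8% of all genes tested, 1 passed the counting test upward and 1 downward, against 19.4% and 21.9%, and the median was 0.04. Zbtb4 was higher in Exon2KO with 111 and 187 reads (log2 ratio 0.72, 0.38 to 1.08) and Zbtb38 lower with 572 and 345 reads (-0.75, -0.95 to -0.56). Both are zinc finger proteins that recognise methylated CpG, and both passed the counting test short of 2-fold. Mbd3, the NuRD subunit that takes the place of MBD2, was at 0.09 (-0.04 to 0.23). Of the 12 other NuRD subunits, 2 passed the counting test upward and 6 downward (19.4% and 21.9% of all genes tested), 0 were called, and the median was -0.13. The deacetylase genes Hdac1 and Hdac2 were at -0.54 (-0.62 to -0.45) and -0.60 (-0.76 to -0.45), the latter the lowest of this list. The ATPase gene Chd4 was at 0.30 (0.18 to 0.43), next to Mbd2 at 0.30, and Gatad2b, a scaffold subunit, was highest at 0.53 (0.30 to 0.76).

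Downstream of the TET enzymes, oxidised cytosine is cut out by base excision repair. Of 12 genes listed for this step, among them the Gadd45 genes named below, 0 were called, against 13.8% of all genes tested. The counting test was passed downward by 6 and upward by 1, against 21.9% and 19.4% of all genes tested, and the median was -0.38, the lowest of the lists of partners. Tdg, the glycosylase that removes oxidised methylcytosine, went from 742 to 495 reads at -0.61 (-0.78 to -0.44). Neil1, a glycosylase that assists it, was at -0.64 (-0.74 to -0.53), and Gadd45a, Gadd45b and Gadd45g, which have been linked to active demethylation and also respond to stress, were at -0.54, -0.40 and -0.67. Neil2, a glycosylase of the same family as Neil1, was lowest in this list with 39 and 22 reads at -0.80 (-1.68 to -0.06), and did not pass the adjusted counting test. Polb, the repair polymerase, went the other way and was highest, from 681 to 951 reads at 0.45 (0.31 to 0.60). Apex1, Xrcc1 and Smug1 were at -0.01 (-0.33 to 0.31), -0.04 (-0.23 to 0.15) and 0.04 (-0.49 to 0.58). The repair genes of this list were thus not all lower. Thus Tet2 was higher and Tdg lower in the same library.

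TET enzymes use alpha-ketoglutarate, and DNMT enzymes use S-adenosylmethionine. Of 9 tested genes of TET partners and cofactor supply, 0 were called, against 13.8% of all genes tested, 2 passed the counting test upward and 3 downward, against 19.4% and 21.9%, and the median was -0.10. Ogt, a sugar transferase that binds TET proteins, was at 0.22 (0.13 to 0.30). Cxxc5, a relative of Cxxc4, was highest at 0.27 (-0.73 to 1.34) with 16 and 20 reads. Cxxc4, a negative regulator of TET2, had 0 reads in both libraries. Of 10 methyl donor genes, 1 was called, in the lower direction, against 6.61% of all genes tested, and 0 passed the counting test upward and 5 downward, against 19.4% and 21.9%. The called gene was Mtrr, which keeps methionine synthase active, with 518 and 244 reads at -1.11 (-1.34 to -0.89), and its call ended with an assumed BCV of 0.2 (adjusted p of 0.11 in edgeR's exact test). Mat2a, which makes S-adenosylmethionine, was at -0.17 (-0.22 to -0.12) with 6389 and 5777 reads.

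None of the 9 genes passed once a spread between samples was assumed. In edgeR's exact test with a BCV of 0.2, 0 of the 9 had an adjusted p below 0.05, and the lowest adjusted p was 0.76. In the authors' deposited table the lowest p-value among the 9 was that of Dnmt1, at 0.215 with an adjusted p-value of 0.793, and its log2 fold change there was -0.54. The authors' deposited table gives Tet2 a log2 fold change of 0.43 with an adjusted p-value of 0.877.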

How the data were processed

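RNA sequencing reads of 2 libraries, 1 WT and 1 Exon2KO, were compared. Gene-level raw read counts were deposited by the authors with FPKM, a scaled count signal (not used here), and a log2 fold change with p-value and adjusted p-value from a test whose tool is not given in the sources used here. Per the submitters' processing notes, HISAT2 2.0.5, StringTie 1.3.3b, featureCounts 1.5.0-p3, DESeq2 1.16.1 and mm10 were used; the role of each, the strand setting and the annotation release are not given in the sources used here.

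Counts were scaled with TMM in edgeR 4.0.16 (R 4.3.3; DESeq2 1.42.0 for an alternative). Log2 ratios carry a prior count of 2; their intervals do not. The binomial test (Python 3.11.15, scipy 1.17.1, statsmodels 0.14.6) compares the reads of these 2 libraries, not the genotypes. It was tested on simulated counts that had no spread between samples, as the test itself assumes. That run therefore cannot show how the test behaves where samples differ. Intervals treat reads as independent draws from 1 library per genotype, so they cover counting error only. Reads carry no molecular identifiers, so copies of the same molecule cannot be told apart and counting error may be larger than the intervals show. A count of 0 allows up to 3 reads, or 0.191 CPM in WT and 0.188 in Exon2KO. The members, the lists of partners and the test were chosen with earlier results of these data known. All 9 members are named; from each list, called genes or else the highest and lowest are named, and other list genes were named after their values were seen. A few list genes that this rule or the lists would name are not reported here. Alternatives varied the scaling, read minimum, fold threshold, prior count and an assumed BCV. Coordinates are as deposited and equal those of GENCODE M21 for all 9 genes.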

Additional observations from a re-analysis of the deposited data

How the results depend on the processing

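The directions of 8 of the 9 log2 ratios held under each scaling and prior count and in the deposited FPKM; an assumed BCV does not enter the ratio. The exception was Tet3, at -0.02 with TMM and 0.088 with total counts, a scaling that moved the median of all genes tested from 0.0035 to 0.108. With total counts Dnmt3a no longer passed the counting test, so 4 of the 9 did, and 60.1% of calls over all genes were higher against 52.1% with TMM. No alternative but the removal of the fold threshold called a member, which gave 2 higher and 3 lower. Over all genes, 1251 were called higher and 1148 lower. An assumed BCV of 0.2 left 579 and 536, a BCV of 0.4 left 86 and 78, a minimum of 50 reads left 649 and 685, 1.5-fold gave 1828 and 1847, and no fold threshold gave 3368 and 3805. Over the other lists together, 3 were called higher and 8 lower. An assumed BCV of 0.2 left 2 and 5, a BCV of 0.4 left 0 and 1, 1.5-fold gave 5 and 16, and no fold threshold gave 13 and 39. Depth limits Tet1 and Dnmt3b most. No paired analysis was possible because each genotype has 1 library.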

Other observations

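Genes whose silencing depends on DNA methylation were looked at beside its enzymes. Of 12 germline genes that promoter methylation keeps silent in body cells, 0 reached 10 reads over both libraries, and the most reads were 2 in WT and 4 in Exon2KO, for Dazl. Of 20 imprinted genes, which are expressed from 1 parental copy under the control of inherited methylation, 11 were tested, of which 1 was called higher and 3 lower, against 7.20% and 6.61% of all genes tested. Airn was called higher, with 59 reads in WT and 200 in Exon2KO (log2 ratio 1.70, 1.31 to 2.18). Called lower were Plagl1 with 343 and 169 reads (-1.04, -1.32 to -0.78), Zrsr1 with 344 and 161 (-1.11, -1.40 to -0.85) and Snrpn with 34 and 7 (-2.02, -3.73 to -1.11). Airn runs antisense to Igf2r, which had 437 and 543 reads, so the division of reads between them is uncertain. With an assumed BCV of 0.2 in edgeR's exact test the adjusted p was 0.159 for Plagl1 and 0.114 for Zrsr1, so these calls ended, against 0.0070 for Airn and 0.027 for Snrpn. With an assumed BCV of 0.4 all 4 calls ended, at adjusted p values from 0.67 to 1. The median of the 11 was 0.05, and these counts do not tell the parental copies apart.

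Of 6 Treg genes known for regions that are demethylated in Treg cells, Foxp3 was called higher at 1.56 (1.52 to 1.60), and Ikzf2, Ikzf4 and Tnfrsf18 were called lower at -4.29, -2.09 and -1.59, against 7.20% of all genes tested called higher and 6.61% lower. With an assumed BCV of 0.2 all 4 calls held, and with 0.4 that of Ikzf2 held, at an adjusted p of 0.0022 in edgeR's exact test, while those of Foxp3, Ikzf4 and Tnfrsf18 ended. Ctla4 was at 0.71 and Il2ra at -0.35. These genes thus lay on both sides of 0 and up to several times farther from it than any of the 9 DNA methylation genes, whose ratios ran from -0.53 to 0.42.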
